A study of Mus musculus with 14 samples.

Results

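Ion channel genes, the mechanosensitive channels among them, were described in 2 RNA-sequencing experiments on mouse Ocy454 cells. They were chosen by symbol as the potassium (*Kcn*), voltage-gated calcium (*Cacna*, *Cacnb* and *Cacng*) and sodium (*Scn*) channel genes, the CLC chloride channel genes, the TRPC, TRPM and TRPV channel genes, *Piezo1* and *Piezo2*, the polycystin genes *Pkd1* and *Pkd2*, the *Tmem63* genes, the P2X receptor genes and the anoctamin genes. Of 189 symbols of this kind in the differentiation table, 70 exceeded 1 CPM (read counts scaled to a common library total) in at least 1 of 8 libraries, among 12725 genes that did so and 39179 genes in the table. The other 119 symbols stayed at or below 1 CPM. The genes nearest to this limit on the inside were *P2rx2*, with a highest value of 1.00 CPM, *P2rx3* with 1.05 and *Kcns1* with 1.10, and those nearest on the outside were *Kcnab1* with 0.952 and *Cacng4* with 0.874. Of the 70 genes, 54 were classed as pore genes, with the CLC chloride-proton exchangers and all anoctamins counted among them, and 16 as partners. Partners are auxiliary subunits, silent subunits that assemble with another pore, or binding proteins.

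Osteocytes are the cells embedded in bone matrix that sense mechanical load. Stretch-activated channels such as PIEZO1 let calcium and other cations into the cell when the membrane is pulled, voltage-gated calcium channels with their beta and alpha2-delta subunits pass calcium when the membrane is depolarized, and potassium channels set the resting potential against which both work. ATP released by loaded bone cells opens P2X receptors, and the large-conductance potassium channel KCNMA1 and the chloride channel ANO1 open when calcium inside the cell rises.

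Ocy454 is an osteocyte-like mouse line, immortalized by a large T antigen that is active at the lower growth temperature and inactivated when the cells are warmed to differentiate. The differentiation libraries come from cells kept at the higher temperature for 1, 7, 10 or 14 days, with 2 biologic replicates a day. The sorted libraries come from cells differentiated for 17 days, of which the 10% with the highest (CD61high) and the 10% with the lowest (CD61low) surface signal for CD61, integrin beta 3, were collected from 3 independent groups of cells. All 14 libraries are of this 1 line, with no other agent or genetic change named in the labels.

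Depth was 27518605 to 34311238 reads counted on genes in the differentiation libraries and 18815602 to 19220064 estimated counts in the sorted libraries. *Itgb3*, which encodes CD61, stood at 5.31 to 6.10 CPM in the CD61low libraries and 100.1 to 130.1 CPM in the CD61high libraries, as labelled. Of 12 osteocyte and osteoblast marker genes, 10 were tested, and 7 of them were called higher on day 14 than on day 1 and 9 higher in CD61high than in CD61low cells. The 6 neuron markers (*Rbfox3*, *Snap25*, *Syt1*, *Stmn2*, *Elavl4* and *Nefl*) summed to at most 0.141 CPM in any library, the 6 endothelial markers to at most 0.861 CPM and the 6 adipocyte markers to at most 0.755 CPM. The 6 chondrocyte markers summed to 92.1 to 94.3 CPM on day 1 and 105 to 124 CPM on day 14. Of the 6 tested, 0 were called higher and 2 lower on day 14 than on day 1. In the sort they summed to 39.5 to 48.8 CPM in CD61low and 101 to 118 CPM in CD61high libraries. Of the 4 tested there, 3 were called higher and 0 lower in CD61high cells. None of the 6 was at 0 in any group, and their part in the results was not tested. Sorted values are CPM after scaling by trimmed mean of M values (TMM), and they are compared with each other only, since the table of days was quantified and scaled separately.

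Levels of different genes were compared per transcript length, as TPM (transcript abundance scaled for length and library total) in the sorted libraries. The median over the 70 genes was 7.73 TPM, 32 genes reached a mean of 10 TPM and 15 stayed below 1 TPM. *Piezo1*, the stretch-gated cation channel gene, had the highest level of the 70, with a mean of 199.9 TPM (168 to 236 over the 6 libraries). *P2rx4*, an ATP-gated cation channel gene, followed with 141 TPM (123 to 158), and its range did not overlap that of *Piezo1*. The calcium channel beta subunit gene *Cacnb3* (106 to 135 TPM) and *Trpc4ap*, whose product binds TRPC4 (101 to 135 TPM), overlapped with each other and with *P2rx4*. *Pkd1* had a mean of 92.2 TPM, *Tmem63a* 81.7, *Trpm4* 79.2 and *Tmem63b* 67.0. These levels sum all transcripts of a gene. Of the estimated counts, 72.5% were on protein-coding transcripts for *Piezo1*, 85.1% for *P2rx4*, 91.4% for *Cacnb3*, 93.5% for *Trpc4ap* and 54.0% for *Pkd1*. An order by protein-coding transcripts alone was not computed. The levels of the 70 genes summed to 1658 TPM in CD61low and 1645 TPM in CD61high cells. TPM values are not scaled by TMM, so these sums do not show whether total channel message differed between the sorted groups. With TMM scaling, 41 of the 61 genes tested in the sort were higher in CD61high cells, called or not, and 20 were lower. With scaling by library totals alone, 25 were higher and 36 lower.

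**Figure D1:**
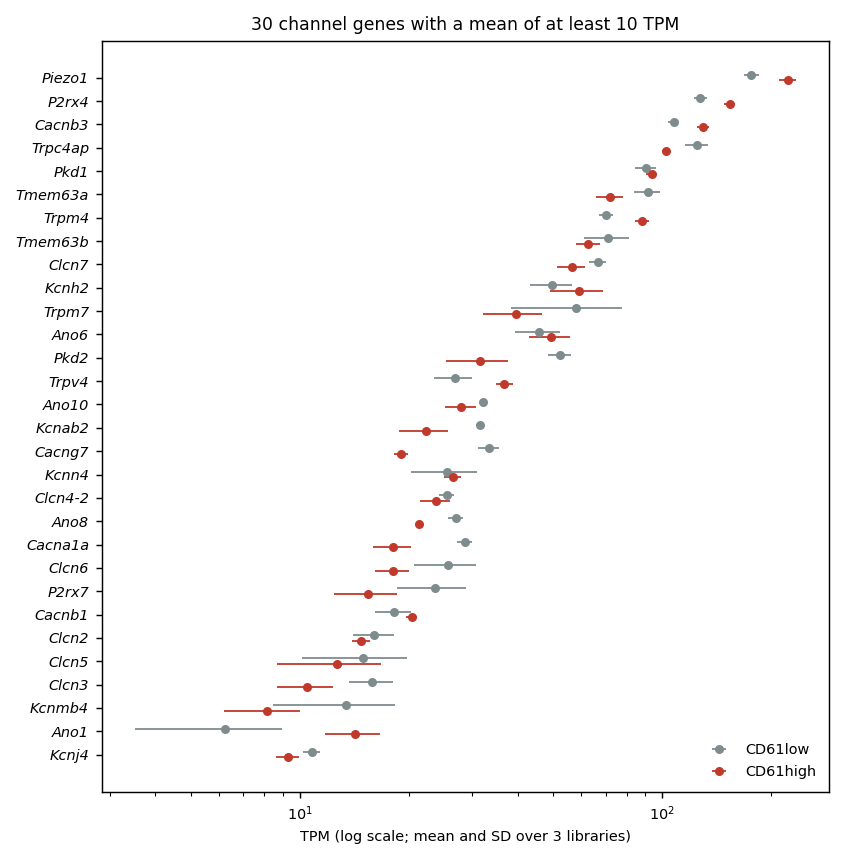
Level of 30 of the 32 channel genes with a mean of at least 10 TPM in the sorted libraries, on a log axis, as the mean and SD over 3 CD61low (grey) and 3 CD61high (red) libraries. *Piezo1* lies furthest to the right, at 177 TPM in CD61low and 223 TPM in CD61high cells. TPM values are not scaled by TMM.

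Between day 1 and day 14, channel genes were called in both directions. A gene was called at a Benjamini-Hochberg adjusted p below 0.01, taken over all genes tested, together with a Log2FC above 1 or below -1. By limma, 15 of the 70 genes were called higher on day 14 and 10 lower, which is 35.7% of them, where 13.4% of all genes tested were called (7.51% higher and 5.9% lower). The median Log2FC was 0.20 over the 70 genes and -0.03 over all genes tested. By day, *Trpm1*, *Kcnk1*, *Kcnk7* and *Kcns2* passed the limit of 1 CPM on day 14 only. *P2rx6* and *Kcns1* did so on day 1 only, and *Kcnh3* on day 10 only. Where these genes are called between days, the call rests on values that also made them members. Of the 54 pore genes, 11 were called higher and 9 lower, and of the 16 partner genes 4 higher and 1 lower. The counts given per channel family come from 2 to 12 genes each, stand beside the same shares of all genes (7.51% higher and 5.9% lower) and were not tested between families. In bulk RNA, fewer cells of a type and less RNA per cell cannot be told apart.

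Between CD61low and CD61high cells fewer channel genes were called. The test covered genes that reached 5 normalized counts in each of the 6 libraries, which 61 of the 70 genes did, and edgeR's quasi-likelihood test called 7 of them higher and 4 lower in CD61high cells, 18% of those tested, where 9.22% of all genes tested were called (4.84% higher and 4.37% lower). *Cacna1h*, *Kcna7*, *Kcnk1*, *Kcnk7*, *Kcns1*, *P2rx2*, *P2rx3*, *P2rx6* and *Trpm1* were too low to be tested. The median Log2FC over the 61 genes was 0.12 and over all genes 0.00, and both turned negative when libraries were scaled by their totals alone (-0.18 and -0.29), where 16 of the 61 genes changed sign. None of those 16 was called in the sort under TMM scaling.

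Among the 7 genes called higher in both experiments were *Ano1*, *Cacna2d2*, *Kcnf1*, *Kcnk6*, *Kcnma1* and *Scn3a*. *P2rx5* and *Piezo2* were called lower in both. No gene was called in opposite directions. *Cacna1s*, *Cacnb3*, *Clcn3*, *Kcnj4*, *Kcns2* and *Scn1a* were called higher on day 14 but not called in the sort, and *Cacna1a*, *Cacna1c*, *Cacnb2*, *Clcn5*, *Kcnj2*, *Kcnk2* and *Kcnk5* were called lower on day 14 but not called in the sort. *Cacna1g* and *Trpc2* were called in the sort alone, both lower in CD61high cells. The difference between the 2 experiments was not tested for any gene.

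**Figure D2:**
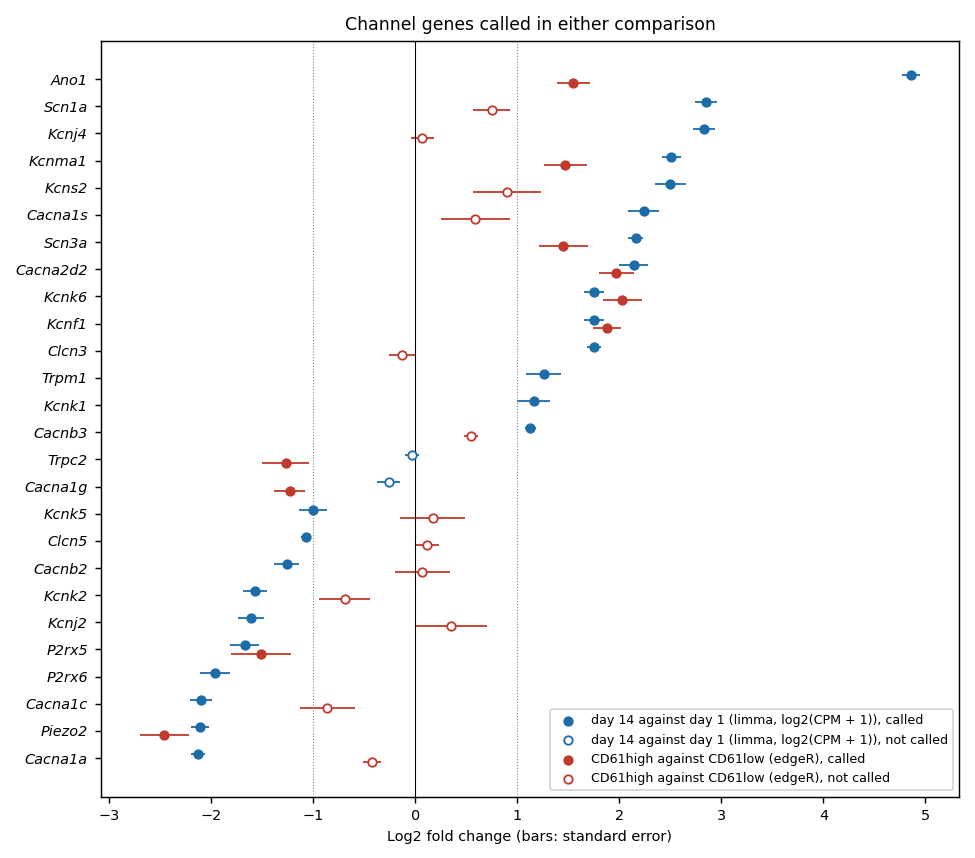
Log2FC with its standard error for channel genes called in either comparison, day 14 against day 1 (blue, limma on log2(CPM + 1)) and CD61high against CD61low (red, edgeR), with filled points where called, open points where not and no red point where a gene was not tested. *Ano1* has the largest blue value, 4.86, and *Piezo2* the lowest red value, -2.46.

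*Piezo1* and *Piezo2*, which encode the only members of their channel family, were measured at very different levels. *Piezo2*, best known from touch-sensing neurons, was at 42.8 and 43.2 CPM on day 1, 12.5 and 11.3 on day 7, 23.9 and 23.9 on day 10, and 10.3 and 8.14 on day 14. Day 1 was above every later library, and day 10 lay between day 1 and the days on either side of it. The fall by day 14 was called (Log2FC -2.11, standard error 0.09, adjusted p = 1.3e-17 in limma). In sorted cells *Piezo2* was at 16.5, 15.3 and 21.2 CPM in the CD61low and 4.52, 3.05 and 2.06 CPM in the CD61high libraries. The groups did not overlap, and the gene was called lower in CD61high cells (Log2FC -2.46, standard error 0.24, adjusted p = 1.6e-05 in edgeR), the largest decrease among the 61 channel genes tested.

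*Piezo1* was at 350.2 and 343 CPM on day 1, 461 and 455 on day 7, 429 and 414 on day 10, and 512 and 484 on day 14. Every later library was above both day 1 libraries, but the Log2FC on day 14 was 0.52 (standard error 0.04, adjusted p = 1.5e-12 in limma), short of the required 1. In sorted cells its values were 539, 542 and 635 CPM for CD61low and 929.7, 723 and 824 CPM for CD61high, again without overlap and again short of the fold required (Log2FC 0.53, adjusted p = 0.0017 in edgeR). On the TPM scale *Piezo1* was at 177 ± 8.23 (SD, n = 3) in CD61low and 223 ± 12.5 in CD61high cells, and *Piezo2* at 5.51 ± 0.736 and 0.710 ± 0.343. These TPM values are not scaled by TMM and serve to compare the genes within a group. Of the *Piezo1* exon bases, 3924 overlap exons of *Ctu2* on the opposite strand, and whether the counting used strand is not given in the sources used here.

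The window before the start site of the *Piezo1* transcript that took most of its estimated counts (60.7%) is shown because this gene had the highest level of the 70. It covers 250 bases upstream of the start in GRCm39, chr8:123278073-123278322 on the minus strand, 5′ to 3′, and capitals mark the letters GGGCGG, the core of a GC box, which lie 36 to 31 bases before the start.
Piezo1: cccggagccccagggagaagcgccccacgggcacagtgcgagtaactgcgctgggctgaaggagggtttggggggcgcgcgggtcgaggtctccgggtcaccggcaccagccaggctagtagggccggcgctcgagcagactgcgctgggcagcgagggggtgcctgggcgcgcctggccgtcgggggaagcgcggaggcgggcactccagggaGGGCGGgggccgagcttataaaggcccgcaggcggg

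*Tmem63a* and *Tmem63b*, which encode stretch-activated cation channels, stayed close to their day 1 level. *Tmem63a* ranged from 74.6 to 101 CPM over the 8 libraries and *Tmem63b* from 57.5 to 78.6 CPM, with Log2FC of -0.03 and 0.15 on day 14. In the sort their Log2FC were 0.05 and 0.07. *Tmem63c* did not reach 1 CPM. *Pkd1* and *Pkd2*, which encode the polycystins that work together at the primary cilium, had Log2FC of -0.08 and -0.23 on day 14. *Pkd2* was at 129, 135 and 143 CPM in CD61low and 120.2, 95.6 and 90.6 CPM in CD61high libraries (Log2FC -0.41, adjusted p = 0.0077 in edgeR), and *Pkd1* at 305 to 401 and 336 to 444 CPM, which overlap.

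Of the 8 TRP genes, 6 had a Log2FC above 0 on day 14 and *Trpm1* was the 1 called by limma, while edgeR on the recovered reads called *Trpm4* as well (Log2FC 1.02). *Trpv4*, a cation channel gene whose product responds to osmotic swelling and shear, was at 26.7 and 26.3 CPM on day 1, 47.1 and 49.0 on day 7, 73.0 and 76.4 on day 10, and 52.8 and 49.3 on day 14. All later libraries lay above day 1, day 10 was highest, and the Log2FC on day 14 was 0.92 (adjusted p = 2.4e-14 in limma). In sorted cells *Trpv4* was at 47.1, 38.1 and 42.7 CPM in CD61low and 77.1, 77.5 and 71.6 CPM in CD61high libraries (Log2FC 0.82, adjusted p = 3.6e-05 in edgeR). *Trpm4*, which encodes a calcium-activated cation channel that carries sodium but not calcium, was at 55.6 and 54.1 CPM on day 1 and 111 and 107 on day 14 (Log2FC 0.97), and at 84.0 to 86.7 and 140.0 to 145 CPM in the sort (Log2FC 0.74, adjusted p = 8.0e-06 in edgeR). Both genes differed without overlap between the groups and fell short of the fold required.

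*Trpm7*, which encodes a channel fused to a kinase that passes magnesium and calcium, was at 246 and 254 CPM on day 1, 365 and 359 on day 10 and 281 and 298 on day 14. *Trpv2* was at 12.7 and 14.6 CPM on day 1, 8.01 and 8.45 on day 7 and 15.3 and 16.8 on day 14, and *Trpc1* at 7.00 and 7.03 CPM on day 1 and 11.7 and 11 on day 14, with Log2FC of 0.22 and 0.63. In the sort the Log2FC was -0.01 for *Trpm7*, 0.58 for *Trpv2* and 0.02 for *Trpc1*. None of these 3 genes was called in any comparison. *Trpm1*, known from melanocytes and retinal bipolar cells, had 0 reads on day 1 and 88 reads on day 14 in the 2 libraries together, 1.57 and 1.24 CPM. Taking 3 reads over the 2 day 1 libraries as the floor (0.0456 CPM), it was at least 31.2-fold higher on day 14. By day it passed 1 CPM on day 14 only, so this fold rests on the values that made it a member. Of its estimated counts in the sort, 22.8% were on protein-coding transcripts.

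*Trpc2* was called in the sort but not between days. In the differentiation table all 8 libraries lay between 23.7 and 29.6 CPM and the Log2FC on day 14 was -0.03. In the sort it was at 3.49, 3.28 and 3.66 CPM in CD61low and 1.17, 1.84 and 1.29 CPM in CD61high libraries, and was called lower (Log2FC -1.27, standard error 0.23, adjusted p = 0.0013 in edgeR). In the annotation used for the sort this identifier is *Xntrpc*, which shares 2823 exon bases with *Trpc2* and 2402 with *Xndc1* on the same strand, and 61.4% of its estimated counts were on a transcript subject to nonsense-mediated decay. Because reads can be shared among these genes, its values are uncertain.

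**Figure D3:**
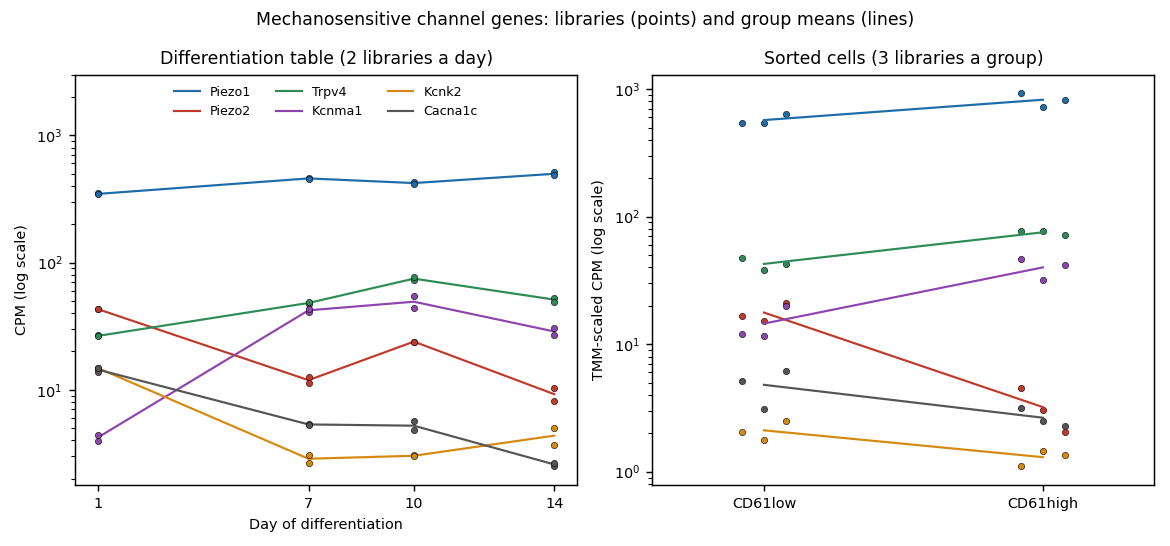
*Piezo1*, *Piezo2*, *Trpv4*, *Kcnma1*, *Kcnk2* and *Cacna1c* by day of differentiation (left, CPM) and in sorted cells (right, TMM-scaled CPM), both on a log axis, with points for libraries and lines for group means. *Piezo1* stays the highest of the 6 in every library, while *Piezo2* is lower in all CD61high than in all CD61low libraries.

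Of the 22 genes listed as mechanosensitive, 18 exceeded 1 CPM, all but *Kcnk4*, *Kcnk10*, *Tmem63c* and *Trpc6*. At day 14, 1 of the 18 was called higher (*Kcnma1*) and 3 lower (*Piezo2*, *Kcnk2* and *Cacna1c*), and in the sort 1 was called higher (*Kcnma1*), 1 lower (*Piezo2*) and 1 could not be tested (*Cacna1h*). Of all genes tested, 13.4% were called on day 14 and 9.22% in the sort. The median Log2FC of the listed genes was 0.21 on day 14 and 0.07 in the sort, beside -0.03 and 0.00 over all genes tested.

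*Ano1* had the largest Log2FC of the 70 genes on day 14 on the log2(CPM + 1) scale, which understates the fold of genes near 0 such as *Kcns2*. It encodes a calcium-activated chloride channel. The gene occupies bases 144142278 to 144305711 of chromosome 7 in GRCm39. It was at 0.767 and 0.784 CPM on day 1, 14.7 and 13.8 on day 7, 20.7 and 22.8 on day 10, and 50.8 and 50.1 on day 14. Each day lay above the one before it without overlap, and the mean on day 14 was 65.0 times that on day 1 (Log2FC 4.86 on log2(CPM + 1), standard error 0.09, adjusted p = 1.4e-25 in limma). In sorted cells *Ano1* was at 9.28, 7.69 and 11.9 CPM in CD61low and 30.6, 23.8 and 29.8 CPM in CD61high libraries. The lowest CD61high library was above the highest CD61low library, and the gene was called higher (Log2FC 1.55, standard error 0.16, adjusted p = 2.7e-05 in edgeR).

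The same upstream window is shown for *Ano1*, the channel gene with the largest Log2FC on that scale, and for *Scn3a*, one of the genes called higher in both experiments. Both windows are on the minus strand of GRCm39, chr7:144292352-144292601 for *Ano1* and chr2:65397972-65398221 for *Scn3a*. Capitals mark GGGCGG in *Ano1* and TGTGGT, the core bound by RUNX factors, in *Scn3a*.
Ano1: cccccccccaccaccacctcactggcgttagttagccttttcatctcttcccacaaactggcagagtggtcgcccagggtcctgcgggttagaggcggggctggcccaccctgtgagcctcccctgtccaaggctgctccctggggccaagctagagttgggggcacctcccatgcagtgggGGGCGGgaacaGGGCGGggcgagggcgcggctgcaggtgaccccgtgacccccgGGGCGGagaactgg
Scn3a: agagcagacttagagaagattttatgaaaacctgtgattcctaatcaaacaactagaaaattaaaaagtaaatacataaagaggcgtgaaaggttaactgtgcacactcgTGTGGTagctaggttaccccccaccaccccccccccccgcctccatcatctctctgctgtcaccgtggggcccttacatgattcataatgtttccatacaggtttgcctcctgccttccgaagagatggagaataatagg
These 2 motifs and ACGTG, the core of a hypoxia response element, were searched on both strands of the 250-base windows of all 70 genes. GGGCGG was in 7 of the 15 windows of genes called higher on day 14, 5 of the 10 of genes called lower and 49.8% of the windows of all 12077 genes tested in the sort. TGTGGT was in 2 of 15, 1 of 10 and 11.5%, and ACGTG in 5 of 15, 2 of 10 and 20.8%. In the 45 genes not called on day 14 the shares were 57.8%, 15.6% and 35.6%. A match describes the sequence only.

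*Ano6*, whose product scrambles membrane lipids when calcium rises, had a mean of 105 ± 1.31 CPM on day 1 (SD, n = 2 libraries a day), 264 ± 2.08 on day 7, 250.3 ± 12.3 on day 10 and 174 ± 9.14 on day 14. Its libraries of day 7 and day 10 were the highest. It was called higher on day 7 (Log2FC 1.33, adjusted p = 4.7e-20 in limma), and on day 14 its Log2FC was 0.73. In the sort its values were 109 to 138 CPM in CD61low and 144 to 172 CPM in CD61high libraries (Log2FC 0.41). *Ano8* and *Ano10* had Log2FC of 0.44 and -0.25 on day 14 and were not called in any comparison.

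*Kcnma1*, the pore of the large-conductance potassium channel that opens with calcium and voltage, was at 3.98 and 4.45 CPM on day 1, 40.9 and 43.4 on day 7, 43.9 and 54.5 on day 10, and 30.5 and 26.9 on day 14. It was highest at days 7 and 10, and every later library was far above both day 1 libraries. It was called higher on day 7 (Log2FC 3.05, standard error 0.09, adjusted p = 5.2e-21 in limma) and on day 14 (Log2FC 2.51, standard error 0.09, adjusted p = 2.7e-19 in limma). In sorted cells it was at 12, 11.5 and 20.0 CPM in CD61low and 46.4, 32.0 and 41.5 CPM in CD61high libraries, with no overlap (Log2FC 1.47, standard error 0.21, adjusted p = 2.1e-04 in edgeR). Its auxiliary subunit gene *Kcnmb4* stayed between 0.933 and 2.07 CPM over the 8 differentiation libraries, with a Log2FC of -0.64 in the sort (adjusted p = 0.061 in edgeR). The small- and intermediate-conductance genes *Kcnn1* and *Kcnn4* and the sodium-activated channel gene *Kcnt2* had Log2FC of 0.24, 0.51 and 0.21 on day 14, and none was called.

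The inward rectifier and K2P genes, whose products carry the background potassium current, had 3 of 7 genes called higher and 3 lower on day 14. The inward rectifier genes *Kcnj2* and *Kcnj4* moved in opposite directions. *Kcnj4* was at 0.886 and 1.35 CPM on day 1, 6.66 and 7.57 on day 7, 16.4 and 16.1 on day 10 and 14.1 and 13.8 on day 14 (Log2FC 2.83, standard error 0.11, adjusted p = 5.2e-18 in limma). *Kcnj2* was at 6.73 and 7.40 CPM on day 1, 0.870 and 0.704 on day 7, 3.78 and 3.32 on day 10 and 1.52 and 1.78 on day 14 (Log2FC -1.61, standard error 0.13, adjusted p = 2.0e-11 in limma). In the sort neither was called, with 10.7 to 12.5 CPM for *Kcnj4* and 0.469 to 0.997 CPM for *Kcnj2* over all 6 libraries.

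Among the K2P leak channels, *Kcnk6* was at 2.83 and 2.85 CPM on day 1 and 11.8 and 12.1 on day 14 (Log2FC 1.75, standard error 0.10, adjusted p = 1.1e-14 in limma). It had the largest increase of the 61 genes in the sort, from 2.15, 1.88 and 2.20 CPM in CD61low to 10.3, 7.25 and 7.94 CPM in CD61high libraries (Log2FC 2.03, standard error 0.19, adjusted p = 1.6e-05 in edgeR). The groups were far apart, with no overlap. *Kcnk2*, which encodes the stretch- and lipid-sensitive channel TREK-1, was at 14.6 and 14.9 CPM on day 1, 3.06 and 2.68 on day 7, 3.05 and 3.00 on day 10, and 3.67 and 5.05 on day 14, and was called lower (Log2FC -1.57, standard error 0.12, adjusted p = 1.0e-11 in limma). It was lowest at days 7 and 10. In the sort it was at 1.78 to 2.49 CPM in CD61low and 1.11 to 1.44 CPM in CD61high libraries (Log2FC -0.69, adjusted p = 0.044 in edgeR), with 31.7% of its estimated counts on protein-coding transcripts.

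*Kcnk5*, a pH-sensitive K2P channel gene, was at 3.87 and 4.70 CPM on day 1 and 1.43 and 1.85 on day 14 (Log2FC -1.0, adjusted p = 2.9e-07 in limma). Its call is at the edge of the fold required and was lost without day 1 replicate 2 (-0.89) and without day 14 replicate 1 (-0.88). *Kcnk1* had 0 reads on day 1 and 79 on day 14 in 2 libraries, at least 28.0-fold higher against the floor of 3 reads over the 2 day 1 libraries, and lost its call without day 14 replicate 1 (Log2FC 0.99). That replicate (1.52 CPM) was the only library above 1 CPM, so the fold rests on the value that made *Kcnk1* a member. *Kcnk7*, another K2P gene, was at 0.325 and 0.157 CPM on day 1, 0.164 and 0.129 on day 10 and 1.25 and 1.53 on day 14. It was called higher on day 14 than on day 10 (Log2FC 1.06), a call lost without day 14 replicate 2 (0.97). Against day 1 its Log2FC was 0.95, short of the fold required. There it was called higher with a pseudocount of 0.1 (2.17) and by edgeR on the recovered reads (2.52). The Log2FC was 1.04 without day 1 replicate 1 and 1.03 without day 14 replicate 1.

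Of 12 voltage-gated potassium channel genes and partners, limma called 3 higher on day 14. *Kcns1* was at 1.03 and 1.10 CPM on day 1 and 0.146 and 0.0363 on day 14, with a Log2FC of -0.92 in limma, not called. It was called lower by edgeR on the recovered reads (-3.37). Limma also called it lower with a pseudocount of 0.1 (-2.67) and with quantile normalization (-1.01).

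*Kcnf1* and *Kcns2* encode silent subunits that form channels only together with another pore subunit, and both had lower values on day 10 than on day 7. *Kcnf1* was at 7.23 and 7.40 CPM on day 1, 15.6 and 14.6 on day 7, 10.5 and 8.99 on day 10 and 24.5 and 29.5 on day 14 (Log2FC 1.75, standard error 0.10, adjusted p = 6.2e-15 in limma). In the sort it was at 5.60, 4.32 and 5.61 CPM in CD61low and 17.5, 19.9 and 19.8 CPM in CD61high libraries (Log2FC 1.88, standard error 0.14, adjusted p = 2.6e-06 in edgeR). *Kcns2* had 1 read in the 2 day 1 libraries together and 291 on day 14, a ratio of 309 after scaling by library size with a 95% counting interval of 55.1 to 12266. This ratio rests on the day 14 values that made it a member. It was at 0.510 and 0.352 CPM on day 7, 0.295 and 0.129 on day 10 and 4.55 and 4.91 on day 14, and at 1.00, 1.03 and 2.25 CPM in CD61low and 3.11, 2.48 and 2.41 CPM in CD61high libraries (Log2FC 0.90, adjusted p = 0.041 in edgeR). Without CD61low replicate 3 the last difference was called (1.36).

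Of the other voltage-gated potassium genes reported here by name, 1 was called on day 7 against day 1 and 1 on day 10 against day 7. *Kcnd1*, an A-type channel gene, was at 11.7 and 13.0 CPM on day 1 and 5.28 and 4.96 on day 7 (Log2FC -1.12, adjusted p = 4.4e-10 in limma). *Kcnab3*, an auxiliary beta subunit gene, was at 4.2 and 4.89 CPM on day 7 and 9.39 and 11.3 on day 10 (Log2FC 1.03, adjusted p = 3.8e-08 in limma), a call lost without day 10 replicate 2 (0.91) or without day 7 replicate 1 (0.94). *Kcnh2*, the delayed rectifier gene known from the heart, was at 54.9 to 59.7 CPM on days 1, 7 and 14 and 85.4 and 90.7 on day 10, and at 59.5 to 64.5 CPM in CD61low and 85.2 to 92.2 CPM in CD61high libraries (Log2FC 0.54). In the main fits, before any alternative, *Kcna7*, *Kcnab2*, *Kcnh2*, *Kcnh3*, *Kcnip3* and *Kcns1* were not called in any comparison. Of these, *Kcna7* and *Kcns1* were too low to be tested in the sort. On day 14 *Kcna7* (Log2FC 0.98) was called higher with a pseudocount of 0.1 (1.64) and by edgeR on the recovered reads (1.75). Without day 1 replicate 2 its Log2FC was 1.18, and without day 14 replicate 2 it was 1.03. From day 7 to day 10 *Kcnh3* (0.89) was called higher in the same ways (1.87 and 1.92). From day 10 to day 14 it (-0.84) was called lower (-1.75 and -1.71).

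Voltage-gated calcium channel genes divided between higher and lower on day 14, with 3 of 12 called in each direction. Of the pore genes, *Cacna1a*, which encodes the P/Q-type channel, was at 56.0 and 57.3 CPM on day 1, 12.7 and 13.2 on day 7, 13.1 and 13.6 on day 10 and 11.7 and 12.6 on day 14. All later libraries lay close together and far below day 1 (Log2FC -2.13, standard error 0.07, adjusted p = 3.6e-19 in limma). *Cacna1c*, which encodes the L-type channel Cav1.2, was at 13.9 and 14.9 CPM on day 1, 5.40 and 5.28 on day 7, 5.65 and 4.80 on day 10 and 2.54 and 2.65 on day 14 (Log2FC -2.10, standard error 0.11, adjusted p = 2.1e-15 in limma). It was below day 1 on day 7 and below day 10 on day 14, without overlap.

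In the sort *Cacna1a* was at 50.4, 51.2 and 43.6 CPM in CD61low and 34.7, 37.3 and 36.6 CPM in CD61high libraries (Log2FC -0.42, adjusted p = 0.0023 in edgeR). Of its estimated counts, 99.7% were on 1 transcript of 2941 bases, Cacna1a-212, which starts at position 85327123 inside a gene that spans 85065224 to 85367997 on chromosome 8 (GRCm39, plus strand). These counts therefore rest on the 3′ part of the gene, and the level of a full-length channel message was not measured by them. *Cacna1c* was at 5.12, 3.10 and 6.20 CPM in CD61low and 3.17, 2.48 and 2.29 CPM in CD61high libraries (Log2FC -0.86, adjusted p = 0.024 in edgeR), which overlap. It was called lower without CD61low replicate 2 (-1.10), with an offset for transcript length (-1.27) and with scaling by library totals (-1.16).

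*Cacna1s*, which encodes the L-type channel of skeletal muscle, was at 0.118 and 0.0627 CPM on day 1, 1.53 and 2.01 on day 7, 0.919 and 0.612 on day 10 and 4.23 and 4.11 on day 14 (Log2FC 2.24, standard error 0.15, adjusted p = 2.9e-13 in limma). The sum of 6 skeletal muscle markers was 2.21 to 2.60 CPM on day 1 and 23.1 to 25.3 CPM on day 14, of which *Acta1* made up 24.0 CPM on average, 5 of the 6 stayed below 1 CPM, and *Myog* and *Ckm* were at 0 on day 14. In the sort the sum was 17.1 to 18.4 CPM in CD61low and 29.8 to 42.1 CPM in CD61high libraries. The part of these transcripts in the change of *Cacna1s* was not tested. In the sort *Cacna1s* was at 0.891 to 1.61 CPM in CD61low and 1.21 to 2.59 CPM in CD61high libraries (Log2FC 0.59, adjusted p = 0.18 in edgeR).

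The T-type channel genes were low. *Cacna1g* stayed at 3.34 to 6.41 CPM over the 8 differentiation libraries. In the sort it was at 10.4, 11.2 and 12.9 CPM in CD61low and 5.10, 5.18 and 4.35 CPM in CD61high libraries (Log2FC -1.23, standard error 0.15, adjusted p = 7.5e-05 in edgeR), but with an offset for transcript length the Log2FC was -0.64 (adjusted p = 0.24 in edgeR), and its most counted transcript, Cacna1g-208, had 183, 231 and 0 estimated counts in the CD61low libraries and 0 in each CD61high library. *Cacna1h* was at 2.66 and 2.76 CPM on day 1 and 4.46 and 3.71 on day 14 (Log2FC 0.45, adjusted p = 0.0028 in limma), and it was too low to be tested in the sort. The N-type gene *Cacna1b* had Log2FC of -0.38 on day 14 and -0.61 in the sort and was not called.

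Among the calcium channel partners, *Cacna2d2*, an alpha2-delta subunit gene, was at 0.118 and 0.188 CPM on day 1, 2.07 and 2.46 on day 7, 2.13 and 1.68 on day 10 and 3.88 and 4.29 on day 14 (Log2FC 2.14, standard error 0.14, adjusted p = 2.8e-13 in limma). In sorted cells it was at 2.25, 3.33 and 3.22 CPM in CD61low and 11.2, 11.5 and 11.9 CPM in CD61high libraries (Log2FC 1.97, standard error 0.17, adjusted p = 8.2e-06 in edgeR). The CD61high libraries lay within 1 CPM of each other and far above the CD61low libraries. Its paralog *Cacna2d1*, which encodes another alpha2-delta subunit, was at 32.7 and 33.4 CPM on day 1 and 45.9 and 45.5 on day 14 (Log2FC 0.46, adjusted p = 3.9e-08 in limma), and overlapped in the sort (15.3 to 26.3 and 18.9 to 28.9 CPM). On the TPM scale *Cacna2d1* was at 10.7 ± 1.22 (SD, n = 3) and *Cacna2d2* at 1.36 ± 0.278 in CD61low cells, and 9.06 ± 2.09 and 6.20 ± 1.94 in CD61high cells. These TPM values are also not scaled by TMM and serve to compare the genes within a group.

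The beta subunit genes, whose products bring the pore to the membrane, differed from one another. *Cacnb3* was at 66.7 and 68.3 CPM on day 1 and 142 and 156 on day 14 (Log2FC 1.13, standard error 0.05, adjusted p = 8.7e-18 in limma), and *Cacnb2* at 6.85 and 6.68 CPM on day 1 and 2.33 and 2.14 on day 14 (Log2FC -1.26, standard error 0.12, adjusted p = 5.2e-10 in limma). *Cacnb1* was at 9.15 and 9.79 CPM on day 1 and 18 and 19.3 on day 14, with a Log2FC of 0.91 in limma, and edgeR on the recovered reads called it higher (1.01). In the sort the Log2FC was 0.55 for *Cacnb3*, 0.51 for *Cacnb1* and 0.07 for *Cacnb2*. *Cacng7* had Log2FC of -0.28 on day 14 and -0.51 in the sort and was not called.

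Of the 4 voltage-gated sodium channel genes, which carry the upstroke of action potentials in excitable cells, 2 were called higher on day 14. *Scn1a* was at 1.45 and 1.73 CPM on day 1, 10.1 and 10.2 on day 7, 6.89 and 8.15 on day 10 and 16.6 and 18.7 on day 14 (Log2FC 2.85, standard error 0.11, adjusted p = 2.4e-18 in limma). *Scn3a* was at 8.18 and 9.75 CPM on day 1, 37.6 and 35.4 on day 7, 27.7 and 25.6 on day 10 and 43.8 and 43.2 on day 14 (Log2FC 2.16, standard error 0.07, adjusted p = 3.0e-19 in limma). Both had lower values on day 10 than on day 7 and were highest on day 14, in libraries where 5 of the 6 neuron markers were at 0.

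In sorted cells *Scn3a* was at 8.04, 10.8 and 18.4 CPM in CD61low and 38.9, 30.6 and 32.2 CPM in CD61high libraries (Log2FC 1.45, standard error 0.24, adjusted p = 6.2e-04 in edgeR), and with an offset for transcript length the Log2FC was 1.07 (adjusted p = 0.039 in edgeR). *Scn1a* was at 6.27, 6.10 and 8.98 CPM in CD61low and 13.7, 12 and 10.2 CPM in CD61high libraries (Log2FC 0.75, adjusted p = 0.0058 in edgeR), apart but short of the fold. *Scn2a1* lies 53130 bases from *Scn3a* on chromosome 2 and was at 11 and 9.91 CPM on day 1 and 8.10 and 7.41 on day 14 (Log2FC -0.39).

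**Figure D4:**
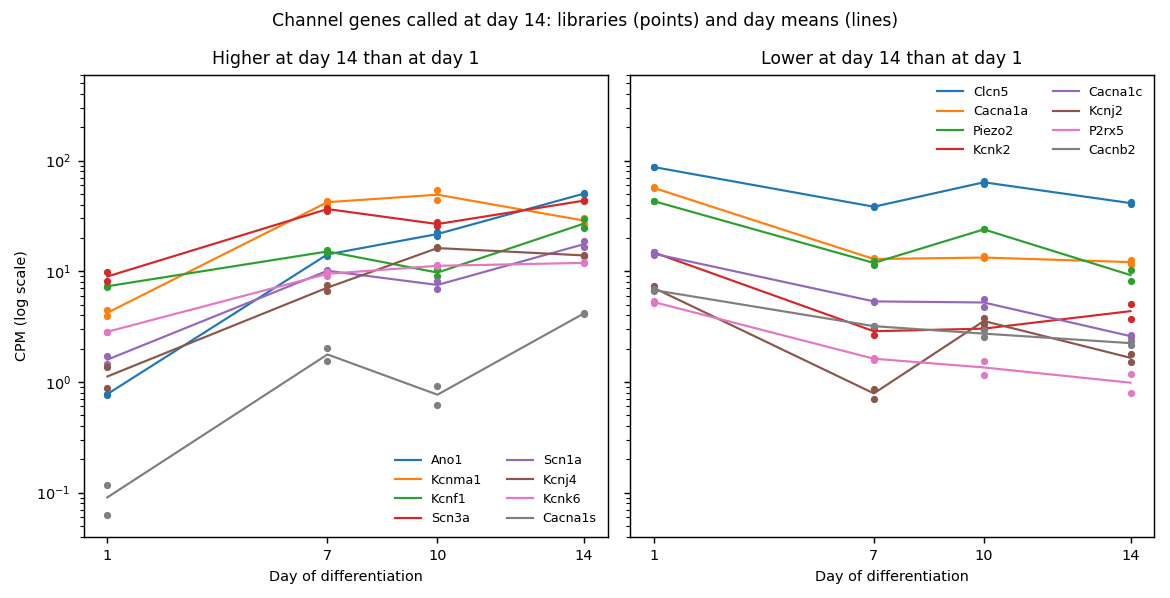
CPM by day, on a log axis, of 8 channel genes called higher (left) and 8 called lower (right) on day 14 than on day 1, with a point for each of 2 libraries a day and a line through the means. *Ano1* goes from 0.767 and 0.784 CPM on day 1 to 50.8 and 50.1 CPM on day 14, while *Cacna1a* stays near its day 7 level from day 7 on.

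Of 6 P2X receptor genes, limma called 2 lower on day 14. *P2rx5* was at 5.40 and 5.14 CPM on day 1 and 1.17 and 0.799 on day 14 (Log2FC -1.67, standard error 0.14, adjusted p = 4.5e-11 in limma). In the sort it was at 1.82, 1.64 and 2.05 CPM in CD61low and 0.763, 0.633 and 0.529 CPM in CD61high libraries (Log2FC -1.51, standard error 0.29, adjusted p = 0.0015 in edgeR). With an offset for transcript length the call was lost, at a Log2FC of -1.39 (adjusted p = 0.011 in edgeR). Of its exon bases, 2034 overlap *Emc6* on the opposite strand. *P2rx6* was at 3.81 and 3.73 CPM on day 1, 0.270 and 0.246 on day 7 and 0.204 and 0.254 on day 14 (Log2FC -1.96, standard error 0.15, adjusted p = 5.8e-12 in limma). This decrease rests on the day 1 values that made it a member. It had 55 estimated counts in the 3 CD61low libraries and 1 in the 3 CD61high libraries, a ratio of 55.6 between them after scaling by library totals, not TMM, with a 95% counting interval of 9.57 to 2234. It was not tested there because of the filter, and 2617 of its exon bases overlap *Slc7a4* on the opposite strand.

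The P2X genes at higher levels were not called. *P2rx4* was at 64.9 and 63.1 CPM on day 1, 122 and 119 on day 10 and 103 and 98.9 on day 14 (Log2FC 0.65, adjusted p = 1.2e-12 in limma), and at 76.6 to 83.0 CPM in CD61low and 100.1 to 119.5 CPM in CD61high libraries (Log2FC 0.45). *P2rx7*, known for opening a large pore in macrophages, lies 15140 bases from *P2rx4* on chromosome 5 and was at 29.7 and 28.9 CPM on day 1 and 25.1 and 23.4 on day 14 (Log2FC -0.26), and 43.8 to 46.7 CPM in CD61low and 31.2 to 36.8 CPM in CD61high libraries (Log2FC -0.39). Of 9 macrophage and osteoclast markers in the differentiation table, 7 were below 1 CPM on every day, all but *Cd68* and *Ctsk*. *P2rx2* and *P2rx3* stayed at or below 1.05 CPM.

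The CLC genes, which encode chloride channels and the chloride-proton exchangers of endosomes and lysosomes, gave 1 call in each direction. *Clcn3* was at 16.1 and 14.1 CPM on day 1, 25.6 and 23.0 on day 7, 31.0 and 29.6 on day 10 and 54.1 and 51.8 on day 14 (Log2FC 1.75, standard error 0.07, adjusted p = 1.0e-17 in limma). *Clcn5* was at 87.8 and 87.3 CPM on day 1, 39 and 37.7 on day 7, 65.8 and 61.5 on day 10 and 42.5 and 40.2 on day 14 (Log2FC -1.07, standard error 0.05, adjusted p = 4.2e-16 in limma). *Clcn3* had higher values at each later day, while *Clcn5* was lowest on day 7. *Clcn7*, the lysosomal exchanger gene needed by osteoclasts to resorb bone, was at 83.7 and 82.3 CPM on day 1, 130.1 and 128 on day 10 and 94.9 and 95.4 on day 14. None of the 6 genes was called in the sort, where their Log2FC lay between -0.13 and 0.22 and the smallest adjusted p was 0.023 in edgeR, for *Clcn4-2*.

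**Figure D5:**
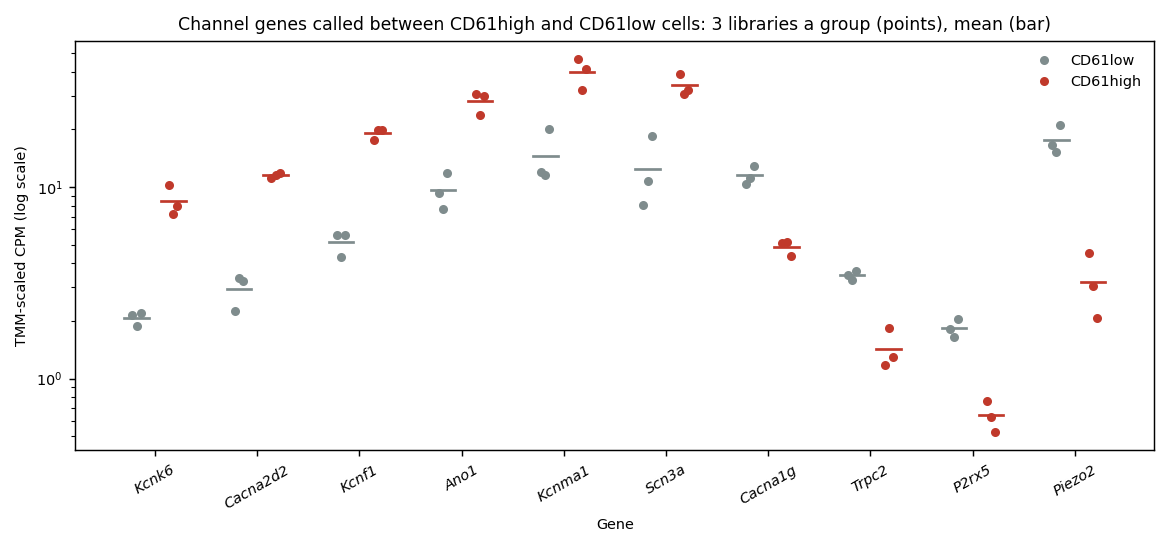
TMM-scaled CPM, on a log axis, of 10 of the 11 channel genes called between CD61low (grey) and CD61high (red) cells, with a point for each of 3 libraries and a bar for the mean. The genes run from *Kcnk6* (highest CD61low value 2.20, lowest CD61high value 7.25) to *Piezo2* (lowest CD61low value 15.3, highest CD61high value 4.52). They were picked by their call, which favours groups that are apart.

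Many channel genes were already called on day 7. Against day 1, limma called 10 channel genes higher and 9 lower on day 7, 27.1% of the 70, where 9.11% of all genes were called (4.49% higher and 4.62% lower). On the log2(CPM + 1) scale the largest increases were those of *Ano1* (Log2FC 3.10), *Kcnma1* (3.05) and *Scn1a* (2.11), and the largest decreases those of *Kcnj2* (-2.17), *Cacna1a* (-2.05) and *Kcnk2* (-2.03). Among the called genes the order differs for ratios of mean CPM. *Cacna1s* was 19.6 times as high on day 7 as on day 1, against 18.4 times for *Ano1*. *P2rx6* was 14.6-fold lower, against 8.98-fold for *Kcnj2*. *Kcns2*, not called on day 7, had a ratio of 29.2 from 1 read on day 1. The comparisons of day 7 with day 1 share the day 1 libraries with that of day 14.

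From day 7 to day 10, 3 channel genes were called higher (*Kcnj2* at a Log2FC of 1.35, *Kcnj4* at 1.09 and *Kcnab3* at 1.03) and 0 lower by limma, which is 4.29% of the 70, against 2.22% of all genes (1.43% higher and 0.786% lower). At an unadjusted p below 0.05 in limma, 32 of the 70 were higher and 15 lower. Of all 12725 genes tested, 4943 were higher and 3171 lower at that limit. With edgeR on the recovered reads, 1 channel gene was called lower. From day 10 to day 14, 7 were called higher and 1 lower, which is 11.4% of the 70, against 2.96% of all genes (2.09% higher and 0.872% lower). Increases included those of *Kcns2* (Log2FC 2.24) and *Cacna1s* (1.55), and the decrease was that of *Piezo2* (-1.29). The mean was highest on day 1 in 21 of the 70 genes, on day 7 in 7, on day 10 in 21 and on day 14 in 21, or 30%, 10%, 30% and 30%, where all genes tested gave 35.6%, 10.7%, 27.4% and 26.3%. In all, 39 of the 70 genes were called in none of the 5 comparisons.

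Transporters and channels outside these families were counted for context, beside the 13.4% of all genes tested that were called on day 14 and the 9.22% in the sort. Of 22 tested genes of calcium release, entry and export, 3 were called higher on day 14 by limma and 2 in the sort by edgeR. The sodium-calcium exchanger gene *Slc8a3*, called higher in both, went from a mean of 2.57 to 105 CPM between day 1 and day 14 and stood at 48.6 CPM in CD61low and 151 CPM in CD61high cells, and *Atp2b4*, a plasma membrane calcium pump gene, from 107 to 294 CPM and at 173 and 358 CPM. Of 7 tested sodium-potassium pump genes and regulators, 3 were called higher on day 14, and 3 higher and 1 lower in the sort. Of 17 tested genes of volume-regulated anion channels, other chloride channels and cotransporters, 3 were called higher and 1 lower on day 14, and of 18 tested in the sort 1 was called lower. The gene called lower was *Lrrc8d*, a volume-regulated anion channel subunit, lower in both (20.8 to 5.15 CPM by day, 19.8 and 5.43 CPM by sort). Of 15 other cation channel genes, 2 were called higher and 1 lower on day 14, and 2 higher and 2 lower in the sort. *Tpcn1*, a lysosomal channel gene, was higher in both (93.5 to 259 CPM by day, 207 and 585 CPM by sort).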

How the data were processed

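RNA from 8 differentiation and 6 sorted libraries was sequenced. For the differentiation table the authors aligned reads with STAR, counted them per gene with HTSeq and deposited CPM. For the sorted cells the authors deposited estimated counts and TPM per transcript from Salmon. Versions of these tools, and whether counting used strand, are not given in the sources used here.

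CPM were tested as log2(CPM + 1) with limma 3.58.1 (trend, all 8 libraries in 1 fit) on the 12725 genes above 1 CPM in at least 1 library. Of the deposited CPM entries, 99.998% gave a whole read number within 0.01, so reads were recovered for edgeR as an alternative. Estimated counts were summed per gene with GENCODE M39 (GRCm39), which matched 115556 of 116747 transcripts, rounded, scaled by TMM and tested with edgeR 4.0.16 (quasi-likelihood) on the 12077 genes that reached 5 normalized counts in each of the 6 libraries. R 4.3.3 and Python 3.11.15 were used, and each test was checked on simulated data. Promoter windows and coordinates come from GRCm39 with the GENCODE annotation.

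The members and gene lists were chosen with earlier results of these data known. Named by rule were the mechanosensitive genes, the 10 largest called changes in each direction for day 14 and the sort where the groups were apart and averaged 1 CPM or more, the 3 largest for other steps and the 3 largest called in each list. Other genes, named to account for every member, were chosen after their values were seen. A few members are counted but not reported here by name. Alternatives were another pseudocount, filter, normalization, threshold, tool (DESeq2 1.42.0 for the sort), a replicate block and leaving out each library. Intervals and floors of counts cover counting error only.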

Additional observations from a re-analysis of the deposited data

How the results depend on the processing

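No called channel gene changed direction under any alternative run, but with scaling of the sort by library totals alone the median Log2FC of the 61 tested genes went from 0.12 to -0.18, and 16 genes, none of them called, changed sign. The counts of called channel genes moved by over 1.5 times in these cases. With a mean of at least 5 CPM required, 5 genes were called lower at day 14 than at day 1, with 50 tested, and 4 higher at day 14 than at day 10. With a pseudocount of 0.1, 6 were called higher and 1 lower from day 7 to day 10, and 3 lower from day 10 to day 14. With edgeR on the recovered reads, 5 were called higher and 1 lower from day 7 to day 10, and 11 higher and 3 lower from day 10 to day 14. With quantile normalization, 1 was called higher from day 7 to day 10. The causes were not tested, other than that fewer genes are tested with a higher CPM minimum. The share of all genes called under each alternative, also with a library left out, is not given here. Whether these moves differ from those of all genes was therefore not assessed.

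Leaving out each library in turn gave 15 to 16 higher and 9 to 10 lower for day 14 against day 1, 10 and 9 for day 7 against day 1 in every case, 2 to 4 higher and 0 lower for day 10 against day 7, 6 to 7 higher and 1 to 2 lower for day 14 against day 10 (2 without day 14 replicate 1), and 6 to 8 higher and 4 to 5 lower in the sort. Where a group was left with 1 library, that library was assumed to vary like the other groups. Over the named genes, 3052 values kept their side of the threshold, 20 passed it and 12 no longer did.

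Same-numbered libraries did not deviate together, with correlations of -0.321, 0.22 and -0.061 in the sort and -0.025 to 0.061 between days, so the numbers were not taken to pair them. With a replicate block the counts were 15 higher and 10 lower at day 14, 10 and 9 at day 7, 3 and 0 from day 7 to day 10, 7 and 1 from day 10 to day 14, and 7 and 4 in the sort. Some genes near 1 CPM changed call with the pseudocount. For *Trpm1* on day 7 against day 1 the Log2FC was 0.70, and 2.85 and called with a pseudocount of 0.1. The part of depth in such changes was not tested.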
